A study of Mus musculus with 7 samples.

Results

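The genes described here are 9 that set how skeletal muscle stores and clears calcium. They are the sarcoplasmic reticulum calcium pumps Atp2a1 and Atp2a2, their small regulators sarcolipin (Sln) and phospholamban (Pln), the store proteins Casq1, Casq2, Hrc and Srl, and the cytosolic buffer parvalbumin (Pvalb). They were chosen by gene symbol from a table of 53819 genes, and 9 of 9 were among the 14935 genes with enough counts to test. RNA was sequenced from quadriceps of wild type male C57BL/6J mice that were 8 weeks old when 200 ul of an AAV8 vector was given into the tail vein, with muscle taken on day 54. The AAV8-IGFBP1 group (3 libraries) received AAV8-Alb-IGFBP1, and the AAV8-Null group (4 libraries) received AAV8-Alb-Null, so both groups carried an AAV8 vector, a serotype that the design text describes as having liver tropism. The labels do not spell out what drives the insert beyond the Alb in the vector names, nor do they say whether the libraries of a group are from different mice. The p-values below therefore cover only the spread between these libraries, which may be technical.

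A muscle fibre relaxes when SERCA pumps move calcium from the cytosol back into the sarcoplasmic reticulum at the cost of ATP. Fast fibres use mainly SERCA1, the product of Atp2a1, while slow fibres and heart use SERCA2a, a product of Atp2a2, and the small membrane proteins sarcolipin and phospholamban lower pump activity. Calsequestrins hold calcium inside the store close to the release channel, and parvalbumin binds calcium in the cytosol of fast fibres, which speeds relaxation.

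Library totals ran from 38947453 to 51210360 counts, and 3 counts, the limit that a count of 0 allows, came to 0.0580 to 0.0785 CPM (counts scaled to a common library total). This limit and the intervals on counts cover counting error only, since the labels name no molecular identifiers that would mark separate molecules. Igfbp1 itself, the gene named in the treatment, had 0, 0, 0 and 8 counts in AAV8-Null 1 to 4 and 202, 1425 and 142 counts in AAV8-IGFBP1 1 to 3, so the libraries followed their labels. The first principal component of the tested genes held 27.2% of the variance. On it AAV8-Null 1 to 4 were at -11.9, -14.1, -25.7 and -14.4 and AAV8-IGFBP1 1 to 3 at 12.6, 45.2 and 8.24. The groups did not overlap on this component, and AAV8-IGFBP1 2 stood apart from all other libraries. The 10 fast fibre markers were all tested and summed to 116371 to 142661 CPM over the 7 libraries, so the tissue had the markers of fast skeletal muscle.

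RefSeq promoter entries (GRCm38.p6, 250 bases before to 50 after a gene's start) were matched by symbol for 6 of the 9 genes, with 7 entries in all; Atp2a2, Sln and Srl had no entry in the table. The promoters of 4 genes are printed 5′ to 3′ on the gene's own strand. Atp2a1, Casq1 and Pvalb are shown because their RNA levels varied together over the libraries, and Casq2 because its levels differed in pattern from those of its paralog Casq1 (r = -0.223 between the pair). Capitals mark each CANNTG match, the E-box core bound by factors such as MyoD. The entries lie at chr7:126463024-126463323 on the minus strand (Atp2a1), chr1:172219846-172220145 on the minus strand (Casq1), chr15:78206351-78206650 on the minus strand (Pvalb, the first of its 2 entries) and chr3:102086165-102086464 on the plus strand (Casq2).
Atp2a1: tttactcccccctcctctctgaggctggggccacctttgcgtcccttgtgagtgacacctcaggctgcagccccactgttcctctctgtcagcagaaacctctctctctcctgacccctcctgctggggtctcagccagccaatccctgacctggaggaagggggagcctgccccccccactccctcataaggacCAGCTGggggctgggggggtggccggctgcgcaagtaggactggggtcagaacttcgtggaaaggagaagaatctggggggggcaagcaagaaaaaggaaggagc
Casq1: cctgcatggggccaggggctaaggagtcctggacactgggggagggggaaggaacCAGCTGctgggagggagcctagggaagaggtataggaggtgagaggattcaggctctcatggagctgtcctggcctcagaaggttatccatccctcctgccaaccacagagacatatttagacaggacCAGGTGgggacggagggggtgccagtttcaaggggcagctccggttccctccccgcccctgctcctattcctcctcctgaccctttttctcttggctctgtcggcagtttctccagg
Pvalb: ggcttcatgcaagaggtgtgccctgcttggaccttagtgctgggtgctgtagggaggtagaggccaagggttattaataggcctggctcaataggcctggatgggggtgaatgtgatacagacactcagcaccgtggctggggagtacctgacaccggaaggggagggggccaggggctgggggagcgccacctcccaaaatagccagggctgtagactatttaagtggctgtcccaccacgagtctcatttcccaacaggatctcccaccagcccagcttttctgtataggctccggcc
Casq2: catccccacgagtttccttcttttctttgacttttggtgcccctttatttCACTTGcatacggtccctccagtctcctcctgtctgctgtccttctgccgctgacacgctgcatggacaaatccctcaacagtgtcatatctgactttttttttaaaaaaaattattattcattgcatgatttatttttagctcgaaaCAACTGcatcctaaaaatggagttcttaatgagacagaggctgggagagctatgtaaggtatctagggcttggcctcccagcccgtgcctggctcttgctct

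Atp2a1 held 1 CANNTG match and Casq1 and Casq2 2 each, while the printed Pvalb entry held 0 and the second Pvalb entry 2. The form CAGCTG occurred once in Atp2a1 and once in Casq1, and 0 times in Casq2 and in either Pvalb entry. Among genes whose entry is not printed, Hrc held 1 CANNTG match and Pln 2, and each held 1 CAGCTG match. Both forms read the same on either strand, and every CAGCTG is also a CANNTG match. Over all 32851 promoters in the table, 72.3% held a CANNTG match and 16.3% a CAGCTG match. A match to the MEF2 consensus, which differs from the E-box, occurred once in Casq2 and once in the printed Pvalb entry but not in the second, and 3.19% of all promoters held one. GC content was 62.3% in Atp2a1, 60.3% in Casq1, 58.3% in the printed Pvalb entry (67.7% in the second) and 44.7% in Casq2, against a median of 52.7% over all promoters. These matches describe letters in a window and are not measured sites.

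None of the 9 genes passed the test between the groups. The test was edgeR's quasi-likelihood test with Benjamini-Hochberg adjustment over all 14935 genes, and it called 83 genes in either direction, 0.556% of those tested. DESeq2 and limma-voom also called 0 of the 9. An unadjusted edgeR p under 0.05 was reached by 1 of the 9, Sln, and by 1889 of all 14935 genes tested. Among the 9, 4 had a log2 fold change above 0 and 5 below it, with a median of -0.03 against -0.00066 over all genes tested, of which 49.9% lay above 0.

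On a scale of CPM per kilobase of principal transcript (GENCODE M21 lengths, so approximate), Atp2a1 and Pvalb stood at the top. Their medians over the 7 libraries were 7443 and 7428 CPM per kilobase, and their ranges of 6933 to 8324 and 6115 to 8132 overlapped. Casq1 followed at a median of 1308 CPM per kilobase (range 1145 to 1416), 2.97 times the 441 of Hrc. The Hrc range of 422 to 461 overlapped that of Srl, 386 to 447 around a median of 424. Atp2a2 came next at 41.7 CPM per kilobase (18.0 to 79.4), with Srl 10.2 times above it, and Casq2 at 9.60 (7.10 to 13.8). The small regulators were lowest, with medians of 0.498 CPM per kilobase for Sln (0.185 to 1.42) and 0.242 for Pln (0.166 to 0.542), ranges that overlapped. All 9 genes took 3.49% to 4.22% of a library's counts.

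Atp2a1, which encodes the pump of fast fibres, was at 24169.7, 27603.6, 24106.5 and 25834.3 CPM in AAV8-Null 1 to 4 and at 28919.4, 25878.7 and 28941.5 CPM in AAV8-IGFBP1 1 to 3. The groups overlapped, since AAV8-IGFBP1 2 lay below AAV8-Null 2. The means were 25428.5 ± 1656 (SD, n = 4) and 27913 ± 1762 CPM (SD, n = 3), a log2 difference of 0.13 (SE 0.086, 95% interval -0.06 to 0.33, adjusted p = 0.574 by edgeR). Atp2a1 differed 1.20-fold between its highest and lowest library.

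Atp2a2, the pump gene of slow fibres, varied far more, though counts per gene do not separate SERCA2a from other products of the gene. It was at 356, 128, 238 and 311 CPM in AAV8-Null 1 to 4 and at 80.6, 132 and 187 CPM in AAV8-IGFBP1 1 to 3. AAV8-Null 2 fell within the range of the AAV8-IGFBP1 libraries, so the groups overlapped, and the highest AAV8-Null library was 2.77 times the lowest. The means were 259 ± 99.4 (SD, n = 4) and 133 ± 53.2 CPM (SD, n = 3), a log2 difference of -0.96 (SE 0.45, 95% interval -2.07 to 0.16, adjusted p = 0.467 by edgeR). The interval reaches from a fall of 4.21-fold to a rise of 1.12-fold, so the data set a wide bound on any difference. In bulk RNA, fewer cells of a type and less RNA per cell cannot be told apart.

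**Figure D1:**
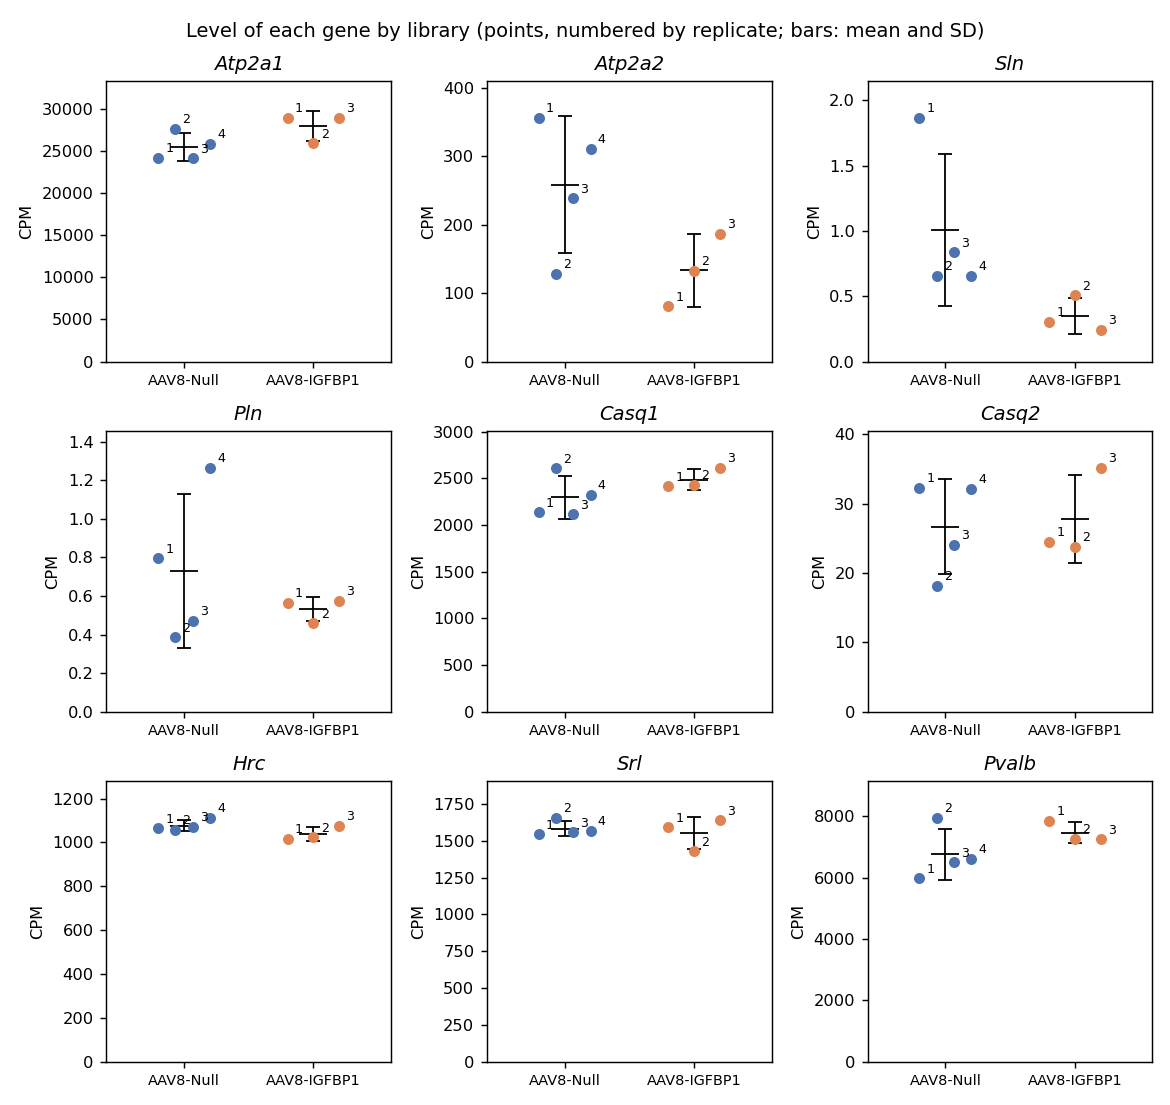
CPM of each of the 9 genes in each library on a linear axis from 0; numbered points are libraries by replicate (blue AAV8-Null, orange AAV8-IGFBP1) and bars give the group mean and SD. Sln is the gene whose 3 AAV8-IGFBP1 points (0.243 to 0.508 CPM) all lie below the 4 AAV8-Null points (0.657 to 1.87 CPM); the other 8 genes overlap.

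Sln encodes sarcolipin, which binds SERCA and is abundant in atria and in slow or developing muscle. It had 94, 34, 32 and 27 counts in AAV8-Null 1 to 4 and 14, 21 and 11 counts in AAV8-IGFBP1 1 to 3. As CPM these were 1.87, 0.657, 0.838 and 0.657 against 0.304, 0.508 and 0.243. All 3 AAV8-IGFBP1 libraries lay below all 4 AAV8-Null libraries, a pattern that 898 of the genes tested (6.01%) shared. AAV8-Null 1 stood alone at the top of its group.

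The group means of Sln were 1.00 ± 0.581 (SD, n = 4) and 0.352 ± 0.138 CPM (SD, n = 3), a log2 difference of -1.52 (SE 0.47, 95% interval -2.57 to -0.48), 2.87-fold lower. The edgeR unadjusted p of 0.00895 became an adjusted p of 0.216 over all genes, so the call failed the correction. An exact permutation test on log2 CPM, two-sided, gave p = 0.0286, unadjusted over the 9 genes and the smallest that 4 libraries against 3 allow. Without AAV8-Null 1, the highest library, the log2 fold change was -1.02, and without AAV8-IGFBP1 2, which stood apart over all genes, it was -1.87. Counting error was large at this depth: exact Poisson 95% intervals ran from 17.8 to 39.3 counts in AAV8-Null 4 and from 13 to 32.1 counts in AAV8-IGFBP1 2, so the nearest libraries of the 2 groups had overlapping intervals.

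Pln, the gene of phospholamban, the regulator best known from heart, had 40, 20, 18 and 52 counts in AAV8-Null 1 to 4 and 26, 19 and 26 counts in AAV8-IGFBP1 1 to 3. The corresponding levels were 0.795, 0.387, 0.471 and 1.27 CPM against 0.564, 0.459 and 0.575 CPM. The AAV8-IGFBP1 libraries sat inside the AAV8-Null range, which spanned 3.27-fold. The log2 fold change was -0.44 (SE 0.41, 95% interval -1.37 to 0.48, adjusted p = 0.721 by edgeR), and it rested on AAV8-Null 4, the highest library, without which it was -0.049. Of 9 heart muscle markers, Nppb and Myl7 were at 0 counts in every library and 3 passed the count filter. The list summed to 5.72 to 11.4 CPM in AAV8-Null and 7.25 to 10.3 in AAV8-IGFBP1, above the level of Pln. Most of this sum came from the 3 markers that passed, since those that failed the filter had at most 10 counts in any library. Whether heart muscle RNA contributes to Pln was not tested.

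Casq1 encodes the calsequestrin of fast fibres. It was at 2136, 2612, 2115 and 2324 CPM in AAV8-Null 1 to 4 and at 2416, 2432 and 2615 CPM in AAV8-IGFBP1 1 to 3, and the groups overlapped through AAV8-Null 2. Its log2 difference was 0.12 (SE 0.088, 95% interval -0.08 to 0.31, adjusted p = 0.646 by edgeR). Casq2, the calsequestrin of heart and slow fibres, was at 32.3, 18.1, 24.1 and 32.2 CPM against 24.5, 23.8 and 35.2 CPM. The lowest library was an AAV8-Null one and the highest an AAV8-IGFBP1 one. Its log2 difference was 0.06 (SE 0.24, 95% interval -0.52 to 0.64, adjusted p = 0.946 by edgeR).

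Hrc, the histidine-rich calcium-binding protein of the store, had the least spread of the 9 genes, with a coefficient of variation of 3.05% over the 7 libraries. It was at 1064, 1058, 1072 and 1112 CPM in AAV8-Null 1 to 4 and at 1017, 1024 and 1076 CPM in AAV8-IGFBP1 1 to 3, with overlap. Its log2 fold change, -0.05 (SE 0.060, 95% interval -0.18 to 0.08, adjusted p = 0.783 by edgeR), had a narrow interval. Srl, which encodes sarcalumenin, was at 1543, 1655, 1559 and 1567 CPM against 1591, 1428 and 1637 CPM. AAV8-IGFBP1 2 was its lowest library. The log2 fold change was -0.03 (SE 0.071, 95% interval -0.18 to 0.13, adjusted p = 0.914 by edgeR).

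Pvalb was at 5975, 7945, 6494 and 6613 CPM in AAV8-Null 1 to 4 and at 7851, 7263 and 7257 CPM in AAV8-IGFBP1 1 to 3. AAV8-Null 2 was the highest of all 7 libraries, so the groups overlapped although the other 3 AAV8-Null libraries lay below every AAV8-IGFBP1 one. The means were 6756 ± 839 (SD, n = 4) and 7457 ± 341 CPM (SD, n = 3), a log2 difference of 0.14 (SE 0.10, 95% interval -0.08 to 0.37, adjusted p = 0.615 by edgeR).

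**Figure D2:**
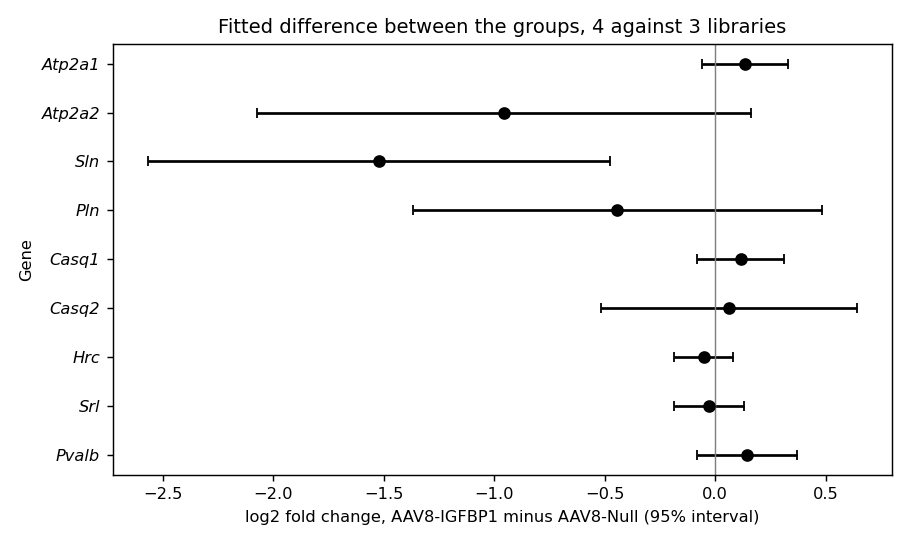
Log2 fold change of each of the 9 genes (AAV8-IGFBP1 against AAV8-Null) with its 95% interval from edgeR. The intervals of Hrc and Srl are narrow and those of Atp2a2, Sln and Pln wide; the Sln interval of -2.57 to -0.48 is the one that does not reach 0, and its adjusted p over all genes was 0.216.

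The balance between slow and fast forms was read from ratios within each library, which do not depend on how the libraries were scaled. Atp2a2 counts were 1.47%, 0.465%, 0.989% and 1.20% of Atp2a1 counts in AAV8-Null 1 to 4 and 0.279%, 0.512% and 0.646% in AAV8-IGFBP1 1 to 3. AAV8-Null 2 again lay among the AAV8-IGFBP1 libraries. The log2 ratio was lower by 1.07 in AAV8-IGFBP1 (-6.72 ± 0.73 SD, n = 4, against -7.79 ± 0.63 SD, n = 3; exact permutation p = 0.114, two-sided, 0.229 adjusted over the 4 ratios tested).

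Casq2 counts were 1.51%, 0.695%, 1.14% and 1.38% of Casq1 counts in AAV8-Null 1 to 4 and 1.02%, 0.978% and 1.35% in AAV8-IGFBP1 1 to 3. The AAV8-IGFBP1 libraries lay inside the AAV8-Null range, and the log2 ratio differed by -0.04 (exact permutation p = 0.914, 0.914 adjusted). The pump ratio and the calsequestrin ratio were not tested against each other. The log2 ratio of Pln to Atp2a2 differed by 0.64 (exact permutation p = 0.200, 0.267 adjusted), with overlap, and by 0.27 without AAV8-IGFBP1 1. The log2 ratio of Sln to Atp2a1 was -14.77 ± 0.78 (SD, n = 4) for AAV8-Null and -16.34 ± 0.63 (SD, n = 3) for the AAV8-IGFBP1 libraries, 2.97-fold lower and without overlap (exact permutation p = 0.0286, the smallest this design allows, 0.114 adjusted). Atp2a1 differed only 1.20-fold over the libraries, so this ratio mostly repeats the Sln difference and is not a separate result.

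**Figure D3:**
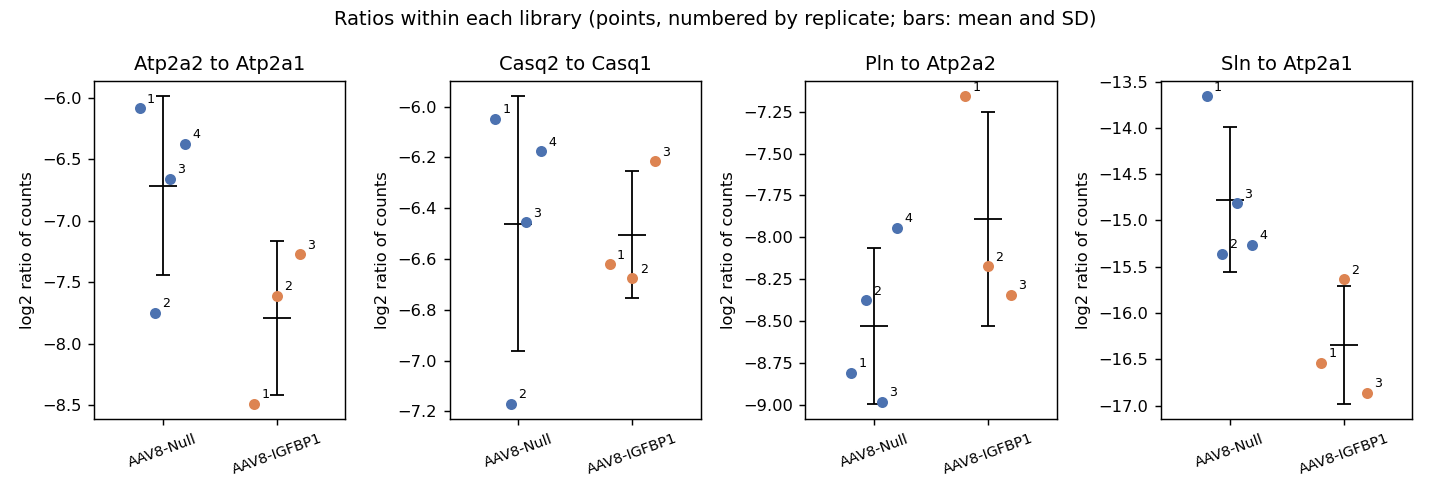
Log2 ratios of Atp2a2 to Atp2a1, Casq2 to Casq1, Pln to Atp2a2 and Sln to Atp2a1 in each library; numbered points are libraries by replicate and bars give the group mean and SD. The groups separate for Sln to Atp2a1 and overlap for the other 3 ratios.

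The 9 genes were set against the slow fibre markers of each library. A slow fibre level was computed for each library as the mean centred log2 CPM of 10 slow fibre markers, none of them among the 9 genes. It was 1.16, -0.36, 0.40 and 1.1 in AAV8-Null 1 to 4 and -1.56, -0.79 and 0.06 in AAV8-IGFBP1 1 to 3 (exact permutation p = 0.114). The markers summed to 611 to 1872 CPM in AAV8-Null and 242 to 826 CPM in AAV8-IGFBP1, with 10 of 10 below 0 in log2 fold change and 0 of 10 past the edgeR test.

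Atp2a2 lay close to this level over the 7 libraries, with r = 0.987 (exact permutation p = 0.000595, adjusted p = 0.165 over all 14935 genes) and rho = 0.964 (exact permutation p = 0.00278, adjusted p = 0.284). The correlation remained without the 2 libraries farthest from the median slow level, AAV8-IGFBP1 1 and AAV8-Null 1 (r = 0.966), and within groups after each group's mean was removed (r = 0.984). At the adjusted threshold 0 of 14935 genes passed (0%), and the smallest adjusted p was 0.141, while 1377 genes (9.22%) had an unadjusted p under 0.05. A correlation as far from 0 as that of Atp2a2 was reached by 13 genes (0.0870%), Atp2a2 included and with markers that make up the level, such as Tnnc1, among them. With the slow fibre level as a term in the edgeR fit, the log2 fold change of Atp2a2 went from -0.96 to 0.17 (adjusted p = 0.693). Because Atp2a2 ran so close to the level, most of its difference had to go in this fit, which cannot tell why. The level also tended to be lower in AAV8-IGFBP1, so such a fit separates level from group poorly for any gene.

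Pvalb ran the other way, at r = -0.848 (exact permutation p = 0.0185, adjusted p = 0.405) and rho = -0.857 (exact permutation p = 0.0238, adjusted p = 0.441). It kept r = -0.725 without the same 2 libraries and -0.794 within groups. Hrc ran with the level at r = 0.854 (exact permutation p = 0.0167, adjusted p = 0.396) and rho = 0.750 (exact permutation p = 0.0663, adjusted p = 0.542), though its highest library was only 1.09 times its lowest. It had r = 0.962 without the 2 farthest libraries and 0.745 within groups. With the slow fibre level in the fit, the log2 fold change of Pvalb was -0.05 (adjusted p = 0.923).

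Sln had r = 0.668 with the slow level (exact permutation p = 0.0948, adjusted p = 0.615; rho = 0.643, exact permutation p = 0.139), and the relation rested on the 2 farthest libraries, since r was 0.244 without them and 0.238 within groups. With the slow level in the fit its log2 fold change was -0.98 (adjusted p = 0.693). Pln had r = 0.635 (exact permutation p = 0.121; rho = 0.643, exact permutation p = 0.139), 0.824 without those libraries and 0.647 within groups. Casq2 had r = 0.549 (exact permutation p = 0.203; rho = 0.500, exact permutation p = 0.267), 0.552 without them and 0.926 within groups. With the slow level in the fit, its log2 fold change went from 0.06 to 0.68 (adjusted p = 0.106). Adjusted p-values of these relations, like those of Atp2a1, Casq1 and Srl, were at least 0.615.

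For the other 3 genes the unadjusted p of the relation also lay above 0.05. Atp2a1 had r = -0.654 (exact permutation p = 0.116; rho = -0.643, exact permutation p = 0.139) and -0.277 without the 2 farthest libraries. Casq1 had r = -0.524 (exact permutation p = 0.231; rho = -0.536, exact permutation p = 0.236) and -0.484 without them. Srl showed r = 0.04 (exact permutation p = 0.930; rho = -0.250, exact permutation p = 0.595) and 0.316 without them.

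**Figure D4:**
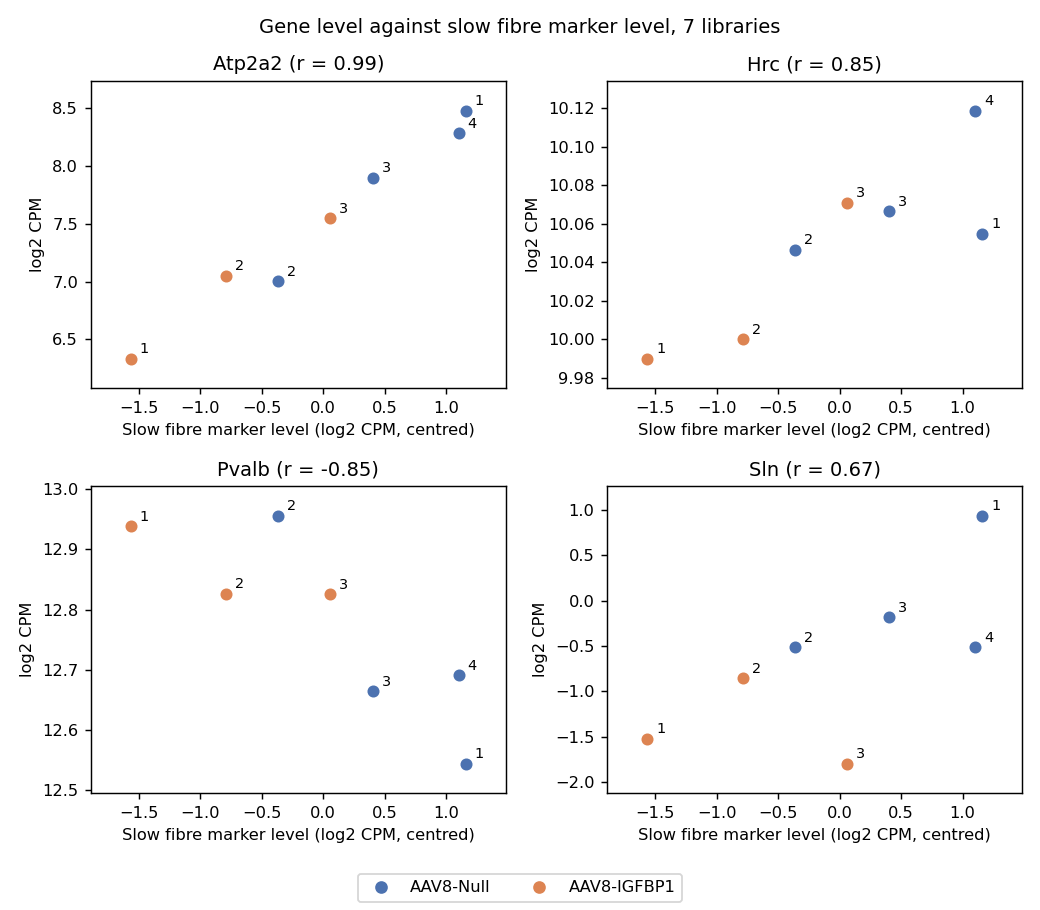
Log2 CPM of Atp2a2, Hrc, Pvalb and Sln against the slow fibre level of each library (mean centred log2 CPM of 10 markers); numbered points are libraries by replicate, blue AAV8-Null and orange AAV8-IGFBP1. Atp2a2 is high where the level is high (r = 0.987), Pvalb is low there (r = -0.848), Hrc spans a narrow range (r = 0.854) and Sln scatters (r = 0.668).

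Between the 9 genes, log2 CPM over the 7 libraries gave r = 0.870 for Atp2a1 with Casq1, 0.841 for Atp2a1 with Pvalb and 0.836 for Casq1 with Pvalb. These 3 genes thus tended to be high in the same libraries. Atp2a2 ran against Pvalb (r = -0.915) and with Hrc (0.792), Sln ran against Atp2a1 (-0.863), and Pln ran with Casq2 (0.727). These correlations describe 7 libraries that share their scaling, and carry no test.

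For each of the 9 genes, the 3 most alike in level were found by Pearson's r of log2 CPM over the 7 libraries, among 7117 or 7118 named genes averaging at least 3 log2 CPM. Atp2a2 was nearest to Palmd (r = 0.993), Mrps9 (0.990) and Myh7 (0.989), the slow myosin heavy chain. Atp2a1 was nearest to Fbxo45 (0.984), Cmya5 (0.979) and Tmf1 (0.978), and Casq1 to Prkag3 (0.990), a regulatory subunit of AMPK found mainly in fast muscle, Slc35b1 (0.982) and Syngr2 (0.982). Hrc was nearest to Stub1 (0.980), Mcu (0.979), the channel of mitochondrial calcium uptake, and Sgca (0.976).

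Casq2 was nearest to Usp33 (0.999), Rbm38 (0.988) and Endog (0.985), Pvalb to Nptn (0.980), Tbrg1 (0.970) and Top1mt (0.963), and Srl to Cmtr1 (0.986), Ints14 (0.961) and Fut8 (0.952). Sln was nearest to Smarca2 (0.966), Slc25a36 (0.952) and Klhl18 (0.941), and Pln to Slc20a2 (0.971), Iscu (0.960) and Hp1bp3 (0.950). These values of r are the highest of a large search over 7 libraries and carry no test.

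Around the 9 genes, 92 others of calcium handling were listed in 7 groups and 84 were tested. Of these, 1 passed the edgeR test as higher, 0 as lower, 33 lay above 0 and 51 below, with a median log2 fold change of -0.03. Other SERCA pumps and pump micropeptides had 0 of 3 tested genes called (5 listed; Arln and Erln had no row under these symbols). Mrln, the myoregulin micropeptide that lowers SERCA activity in skeletal muscle, was at 21.4, 21.6, 20.9 and 21.9 CPM in AAV8-Null 1 to 4 and 28.3, 23.4 and 26.7 in AAV8-IGFBP1 1 to 3. It was higher in every AAV8-IGFBP1 library, as were 946 of the genes tested (6.33%), and its log2 difference of 0.28 (SE 0.073) missed the test (adjusted p = 0.145 by edgeR). Strit1 encodes DWORF, an activator of SERCA in slow muscle and heart. It had 32, 6, 7 and 15 counts in AAV8-Null 1 to 4 and 3, 9 and 10 in AAV8-IGFBP1 1 to 3. Its means were 0.325 CPM in AAV8-Null and 0.168 CPM in AAV8-IGFBP1 (log2 difference -0.96, SE 0.66, adjusted p = 0.598 by edgeR). Its r with the slow fibre level was 0.869 (exact permutation p = 0.0103, adjusted p = 0.363 over all genes tested).

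The calcium release complex had 12 of 15 tested genes above 0 and a median of 0.13, and Cacnb1, a subunit of the surface calcium channel that senses voltage, was its 1 called gene. Cacnb1 went from 135 ± 3.65 (SD, n = 4) to 168 ± 5.80 CPM (SD, n = 3), a log2 difference of 0.32 (SE 0.054, adjusted p = 0.0422 by edgeR), without overlap. Over 18 alternatives the log2 difference stayed between 0.29 and 0.34, and the call held in 9. The call was lost without any 1 of the 7 libraries (adjusted p from 0.0580 to 0.158). The adjusted p was 0.216 with the replicate number as a block and 0.151 with the slow fibre marker level as a covariate. Cacng1, the gamma subunit of the same channel, was at 149 ± 15.9 (SD, n = 4) and 184 ± 3.01 CPM (SD, n = 3) and missed the test (adjusted p = 0.169 by edgeR).

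In the remaining groups 0 genes were called. SERCA modulators had 6 of 14 above 0 (median -0.01), other calcium-binding proteins 3 of 12 (-0.04), surface membrane and store-operated transport 4 of 14 (-0.09), mitochondrial uptake 2 of 12 (-0.08) and calcineurin and NFAT 5 of 14 (-0.11). Genes of lowest unadjusted p in each are given next, and those named had adjusted p-values of at least 0.222 by edgeR. Among SERCA modulators, the kinase gene Camk2d differed by -0.18 on the log2 scale and S100a1, whose protein binds SERCA and the release channel, by -0.30. Rcn1 and Rcn3, which encode reticulocalbins of the secretory pathway, differed by -0.27 and -0.39. The sodium-calcium exchanger gene Slc8a2, at only 10 to 34 counts per library, differed by -1.0 and the surface calcium pump gene Atp2b3 by -0.18. In the mitochondrial group, the outer membrane channel gene Vdac2 differed by -0.15. Rcan2, a regulator of calcineurin, differed by -0.44 and Myoz2, a calsarcin of slow fibres that binds calcineurin, by -1.12. Myoz2 had r = 0.988 with the slow fibre level, beside the 0.987 of Atp2a2.

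**Figure D5:**
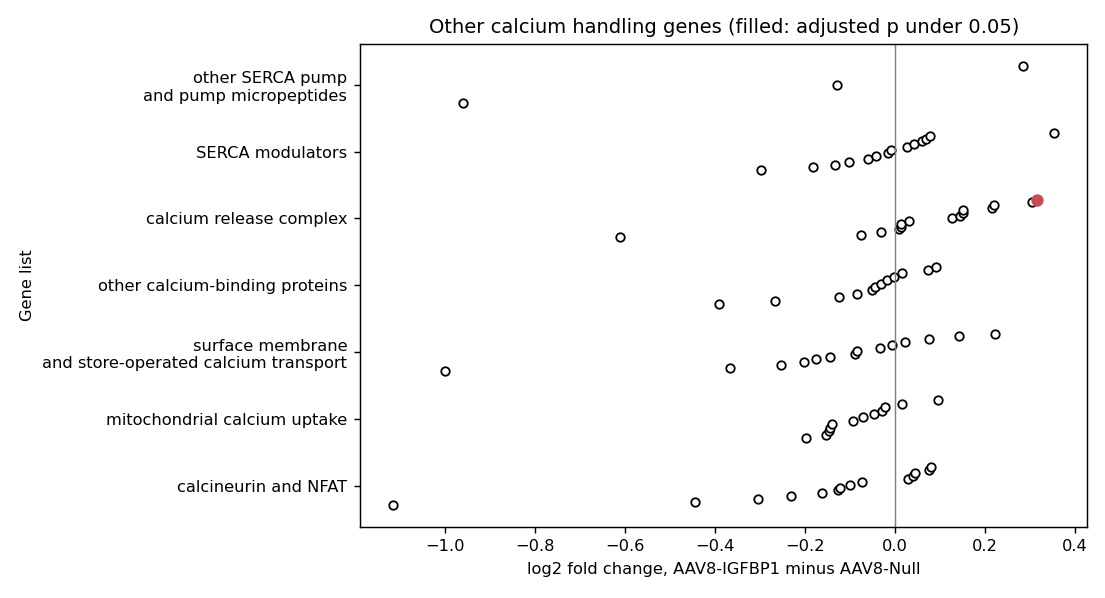
Log2 fold change of each tested gene in the groups of calcium-handling genes, 1 point per gene. The calcium release complex lies mostly above 0 (12 of 15 genes), and mitochondrial uptake mostly below (10 of 12).

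Markers of other cells in the muscle were compared to show what moved beside the 9 genes. Smooth muscle markers had 1 of 8 called, Tagln, lower in AAV8-IGFBP1, and the list's mean level was 0.08 to 0.51 in AAV8-Null and -0.41 to -0.25 in AAV8-IGFBP1, without overlap (exact permutation p = 0.0286). The muscle spindle list did not overlap either (0.16 to 0.54 against -0.75 to 0.01, exact permutation p = 0.0286), with 0 of 5 tested genes called (7 listed). Both p-values are the smallest this design allows and were not adjusted over the marker lists compared. Within the spindle list, Egr3 ranged from 0.633 to 16.6 CPM in AAV8-Null, and Myh3 had r = 0.908 with the slow fibre level. Adipocyte markers summed to 414 to 663 CPM in AAV8-Null and 539 to 1767 in AAV8-IGFBP1, and tendon markers to 175 to 405 against 81.0 to 326, with 0 of 8 called in each. The fast fibre list had 0 of 10 called, with 6 above 0 and 4 below, and it was split: Myh1 and Myh2, myosin heavy chains of fast fibres, had r = 0.956 and 0.940 with the slow fibre level, on the side of Atp2a2, and log2 fold changes of -0.45 and -0.66 (adjusted p = 0.417 and 0.572 by edgeR). Whether these cells contribute to the values of the 9 genes, including the lower Sln, was not tested.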

How the data were processed

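The values are estimated counts, deposited by the authors in a single table with a row per gene symbol and a column per library. The submitters' processing notes name STAR 2.7.9a, Salmon 1.10.1, cutadapt 3.4 and Trim Galore 0.6.7, beside R 4.2.2 and the GRCm39 build, without saying what each did. Per the labels' protocols, the RNeasy Mini Kit was used for total RNA and the Universal Plus mRNA-Seq kit for libraries. The annotation and the strand setting are not given in the sources used here. Reads of overlapping or antisense genes may therefore be shared. Of the values, 5617 to 6277 per library were not whole (tolerance 1e-06), and all were rounded before testing.

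Libraries were grouped by title. Genes were kept by edgeR 4.0.16's filter (minimum count 10, minimum total 15), scaled by TMM and tested with its quasi-likelihood test (R 4.3.3), adjusted by Benjamini-Hochberg over 14935 genes at 0.05. CPM used TMM-scaled totals, and log2 CPM a prior count of 2. SE is the log2 fold change divided by the root of the F statistic and is approximate. Ratios used exact permutation over 35 splits, and the slow fibre relation 5040 orderings. The test was checked on simulated data. Alternatives were DESeq2 1.42.0, limma-voom (limma 3.58.1), other filters, the slow level as a covariate, a replicate block and each library left out.

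Named genes were the 9, the genes nearest each in level, every gene past the threshold and the 2 of lowest unadjusted p in each calcium-handling list, and up to 2 markers of a list beside a result; 1 gene under this rule is not reported here. The 9 genes and all lists were chosen with earlier results of these data known. The promoters are of GRCm38.p6, another build than that of the counts, so no positions are given for the counts.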

Additional observations from a re-analysis of the deposited data

Results flagged for a closer look

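Sln in AAV8-Null 1, at 1.87 CPM, stood far from the other 3 AAV8-Null libraries, which lay between 0.657 and 0.838 CPM; its gap to the nearest was 0.851 of the group's whole range, above Dixon's 95% critical value for 4 samples. It was the 1 such case among 27 sets of values screened, and chance gives about 1 in 20. AAV8-Null 1 was also the library with the highest slow fibre level, 1.16, and whether that bears on its Sln level was not tested.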

How the results depend on the processing

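Under 18 alternatives 0 of the 9 genes passed the threshold. Of 160 values of the 9 genes, 153 kept their direction, and the lowest adjusted p was 0.0678 (Sln, DESeq2). The direction turned with the slow fibre level as a covariate for Atp2a2 (0.17), Pln (0.37) and Pvalb (-0.050), and with limma-voom quality weights for Casq2 (-0.029); the slow level covariate took Casq2 to 0.68, the replicate block took Pln to -0.0072, and leaving out 1 library at a time gave Casq2 -0.14 to 0.17, Pln -0.66 to -0.049 and Srl -0.066 to 0.030. The r of Srl with the slow level was -0.053 with Myh7 alone and -0.51 to 0.19 leaving out 1 library at a time. The log2 ratio of Casq2 to Casq1 ranged from -0.28 to 0.10 leaving out 1 library at a time and was 0.053 with the replicate block. That of Pln to Atp2a2 ranged from 0.27 to 0.86 in the same way, and that of Sln to Atp2a1 ranged from -1.93 to -1.20 (exact p 0.0667 to 0.133, where 3 against 3 cannot go below 0.10). With the block the ratio of Sln to Atp2a1 was -1.73 (exact p = 0.25, the smallest that 3 differences within replicates allow). The count of genes called among all tested moved from 83 (54 higher, 29 lower) to 441 (211 higher, 230 lower) with DESeq2, 306 (155 and 151) without a count filter, 19 (14 and 5) with the replicate block, 49 (18 and 31) with the slow level as a covariate, and 19 to 86 leaving out 1 library at a time, where it was 19 without AAV8-Null 1, 52 without AAV8-Null 3, 28 without AAV8-IGFBP1 1 and 23 without AAV8-IGFBP1 2. Same-numbered libraries did not deviate together (r = -0.098, 0.068 and -0.057), so the block pairs only numbers, and it changed no call of the 9 genes. A minimum count of 50 left Sln and Pln untested; with 11 to 94 counts of Sln and 18 to 52 of Pln per library, depth limits both. The causes of these shifts were not tested.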
